A study of Homo sapiens with 6 samples.

Results

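Carbonic anhydrases are the enzymes that interconvert carbon dioxide and bicarbonate with release of a proton, and 9 of them were read here on 6 one-colour Affymetrix arrays of U87 MG, an established human glioblastoma line. The genes were taken by platform symbol from a list of 10. CA2, CA3, CA4, CA5B, CA8, CA11, CA12, CA13 and CA14 each had 1 probe set, out of 22350 genes with a probe set of their own. CA9, a tumour-associated isozyme and a well-known hypoxia target, is not analysed here, because the annotation used names no probe set for it. The family was selected on the measured fall of CA12 in this same contrast, at a time when few hypoxia genes were seen to change. All differences of the 9 genes between the groups are therefore given as a description, with no p-value, and support nothing beyond themselves.

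The study compared 3 arrays of U87 MG cells stably carrying GUCY1B3, the beta subunit of the nitric oxide receptor soluble guanylate cyclase, on a pcDNA3.1-type plasmid with a V5-His tag, with 3 arrays of U87 MG cells labelled control. Both groups were grown untreated in DMEM with serum. The labels name no empty-vector line, and leave unsaid whether the stable cells were 1 clone or a pool and whether replicates came from independent cultures. Effects of the gene, the plasmid and the selection of the stable line cannot be told apart, and p-values reflect the spread among these arrays alone, which could be technical. GUCY1B3, listed under its current symbol GUCY1B1, read 8.10, 8.18 and 8.40 in overexpression and 7.45, 7.70 and 7.49 in control.

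The isozymes differ in where they sit. CA2, CA3 and CA13 are cytosolic, CA5B is mitochondrial, CA4 is held on the outer cell surface by a lipid anchor, and CA12 and CA14 are transmembrane proteins with the active site outside the cell. CA8 and CA11 are related proteins without the classical catalytic activity. In tumours the extracellular isozymes are known for handling acid made by metabolism, together with bicarbonate transporters, proton exchangers and lactate carriers.

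Values are log2 RMA expression values (background-corrected, quantile-normalized and summarised per probe set), and differences are overexpression minus control on that scale. A gene was tested when its probe set exceeded the median of all features of the array on at least 3 of the 6 arrays. CA4, CA5B, CA11, CA12 and CA13 did so on all 6 arrays, while CA2, CA3, CA8 and CA14 did so on 0 arrays. These last 4 genes are called dim below, and no statement on their presence can be made, since detection calls were not used. Levels of different probe sets are not set against each other, because probes differ in their response.

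CA12 was the isozyme whose level differed most between the groups. Its probe set on chromosome 15 read 8.28, 8.33 and 8.11 on the control arrays and 6.68, 6.81 and 6.84 on the overexpression arrays. The groups did not overlap, and the highest overexpression array lay 1.27 below the lowest control array. The control mean was 8.24 ± 0.11 and the overexpression mean 6.77 ± 0.09 (SD over 3 arrays), a difference of -1.47 ± 0.07 (limma standard error) on the log2 scale, or 2.77-fold lower. By size this was fall number 21 among the 15800 genes tested. Control array 3 lay below the other controls (its difference was -0.19), and leaving out 1 array at a time kept the difference between -1.53 and -1.42. The value remained above the array median in overexpression.

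The stretch before the annotated start of CA12 is shown with those of CA5B and CA14, the 3 members among the 9 for which the RefSeq promoter table (GRCh38.p14) gave a sequence, as context for genes that moved differently. Each runs over the 250 bases before the start, on the gene's own strand, at chr15:63381847-63382096 (minus strand), chrX:15738020-15738269 (plus strand) and chr1:150257524-150257773 (plus strand). Capitals mark ACGTG or GCGTG on either strand, the letters of the core that hypoxia-inducible factors (HIF) bind, read on the opposite strand as CACGT or CACGC.
CA12: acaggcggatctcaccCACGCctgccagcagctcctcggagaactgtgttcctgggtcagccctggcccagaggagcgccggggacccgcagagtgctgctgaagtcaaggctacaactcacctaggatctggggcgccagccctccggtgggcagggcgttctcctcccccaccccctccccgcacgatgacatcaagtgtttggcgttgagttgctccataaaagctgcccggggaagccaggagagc
CA5B: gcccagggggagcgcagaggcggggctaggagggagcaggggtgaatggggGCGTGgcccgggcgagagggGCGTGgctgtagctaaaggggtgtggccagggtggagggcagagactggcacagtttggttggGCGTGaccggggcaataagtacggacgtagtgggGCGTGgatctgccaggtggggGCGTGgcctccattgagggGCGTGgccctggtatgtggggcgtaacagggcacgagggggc
CA14: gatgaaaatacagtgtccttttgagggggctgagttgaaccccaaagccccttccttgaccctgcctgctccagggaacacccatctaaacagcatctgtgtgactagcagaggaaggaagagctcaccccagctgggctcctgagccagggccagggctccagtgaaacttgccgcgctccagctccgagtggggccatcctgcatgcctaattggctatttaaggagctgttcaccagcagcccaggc

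The CA12 stretch held 1 such match, beginning 234 bases before the start, the CA5B stretch held 6 and the CA14 stretch 0. Over all 27305 genes of the table, 43.1% held at least 1 match of either kind in the same window (18.7% ACGTG and 31.9% GCGTG). All 3 stretches held 1 match to GGTCA, a half-site of the oestrogen response element, as did 33.1% of all genes at least once. TGACG, a half-site of the cAMP response element found in 21.7% of all genes, was in 0 of the 3. The share of G and C was 64.8% for CA12, 69.2% for CA5B and 57.6% for CA14, against a median of 58% over all genes. A match is a description of letters and not a bound site.

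**Figure D1:**
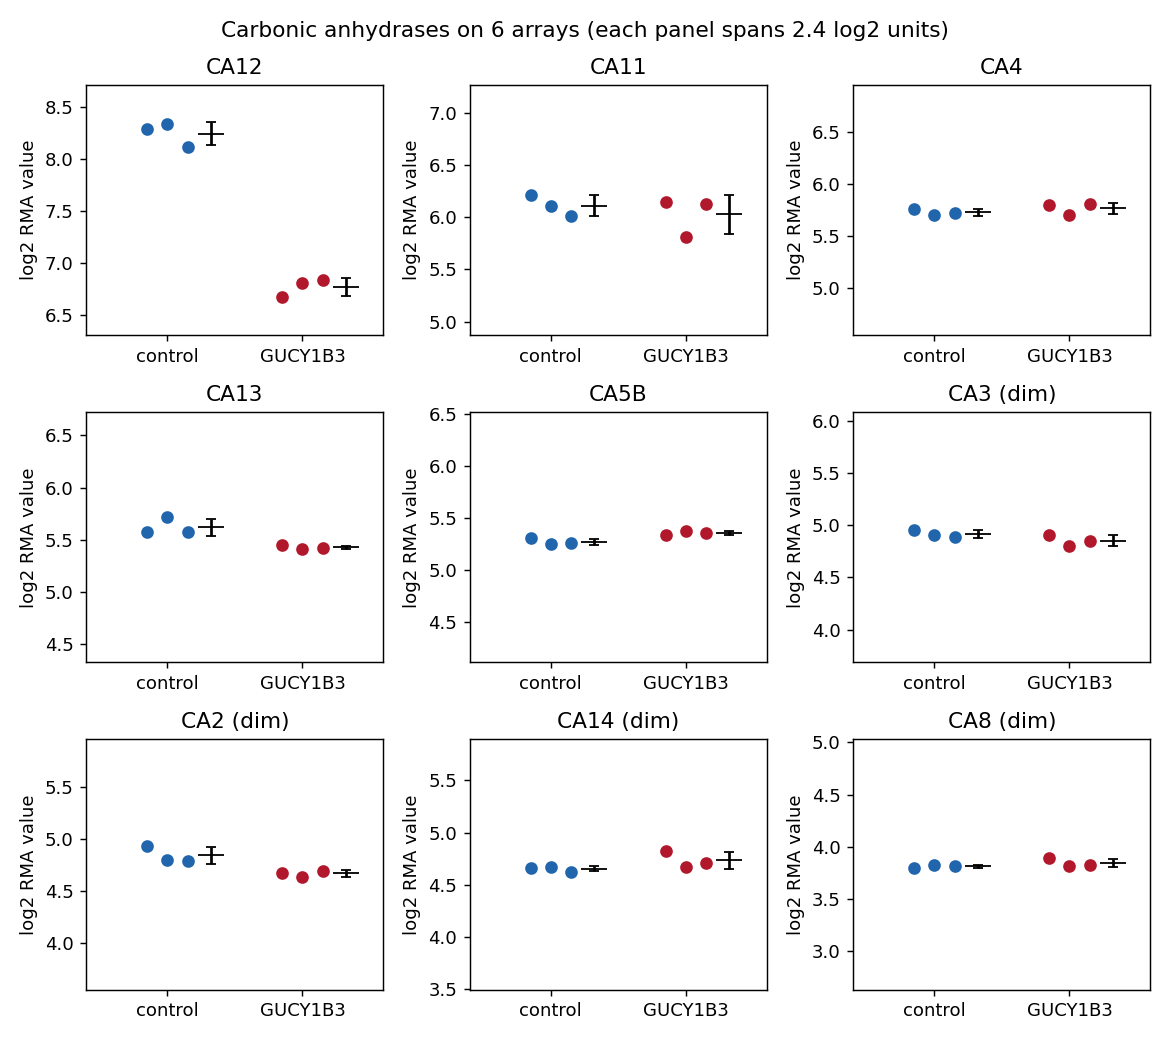
Log2 RMA values of 9 carbonic anhydrases on 3 control arrays (blue) and 3 GUCY1B3 overexpression arrays (red), with black marks for the mean and SD of each group. Each panel spans the same number of log2 units, panels run from the brightest to the dimmest control mean, and "dim" marks genes above the array median on 0 arrays. CA12 is the panel with a wide gap between the groups (8.24 against 6.77).

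CA14, the transmembrane isozyme most like CA12 in layout, was dim and did not show this pattern. It read 4.83, 4.67 and 4.71 in overexpression and 4.66, 4.67 and 4.63 in control, and the groups overlapped (difference 0.08 ± 0.06). CA4, the lipid-anchored surface isozyme, read 5.80, 5.71 and 5.80 in overexpression and 5.76, 5.70 and 5.73 in control. Its groups overlapped as well, and its difference was 0.04 ± 0.05.

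Among the cytosolic enzymes, CA13 and CA2 were slightly lower on all overexpression arrays. CA13 read 5.45, 5.42 and 5.42 in overexpression and 5.57, 5.72 and 5.57 in control, a difference of -0.19 ± 0.06. CA2, the fast and widely expressed isozyme, read 4.67, 4.63 and 4.69 in overexpression and 4.93, 4.80 and 4.79 in control (-0.17 ± 0.06). The groups of both genes were separate, by gaps of 0.12 and 0.09, but CA2 was dim on every array. CA3, a slow isozyme abundant in muscle, overlapped between the groups, with 4.91, 4.80 and 4.85 against 4.95, 4.91 and 4.88 in control and a difference of -0.06 ± 0.05. CA2, CA3 and CA13 all lie on chromosome 8, as does CA8.

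The mitochondrial CA5B was slightly higher on all overexpression arrays, a direction of separation shared by 17.1% of all tested genes. It read 5.34, 5.37 and 5.36 in overexpression and 5.30, 5.25 and 5.26 in control, without overlap (difference 0.08 ± 0.05). The gap between the groups was 0.03, and the arrays of each group lay close together. The non-catalytic CA8, dim on all arrays, read 3.89, 3.82 and 3.83 against 3.80, 3.83 and 3.82 in control (difference 0.03 ± 0.05). CA11, the other non-catalytic member, read 6.15, 5.81 and 6.13 in overexpression and 6.21, 6.11 and 6.01 in control. Overexpression array 2 was its lowest, the groups overlapped, and the difference of -0.08 ± 0.10 became 0.03 without that array.

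**Figure D2:**
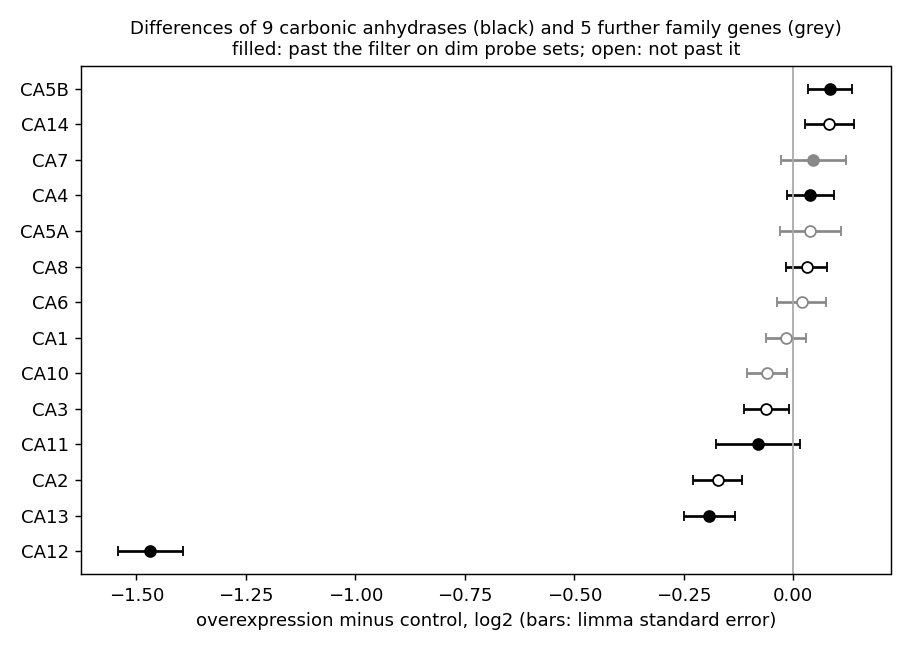
Difference between overexpression and control (log2, horizontal axis) with its limma standard error for the 9 carbonic anhydrases (black) and 5 further family genes (grey), filled where the gene passed the filter on dim probe sets. CA12 lies at -1.47, and the other 8 members lie between -0.19 and 0.08.

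Of the 5 tested members, CA12 alone, whose fall was what the choice rested on, lay past an adjusted p of 0.05 in the limma fit over all genes (0 higher, 1 lower), a count that the choice fixed and from which nothing is read. In the same fit 10.9% of all tested genes lay past it in either direction, 6.39% higher and 4.54% lower. Without control array 3 the count was 2 lower, with CA13 (difference -0.22) beside CA12, while the share over all genes rose to 23.0% (13.0% higher and 9.98% lower). The groups did not overlap for 3 of the 5 tested members (1 above and 2 below control) and for CA2 among the dim ones, against 29.2% of all tested genes (17.1% above and 12.2% below). The median difference of the 9 genes was -0.06, against 0.02 over all genes with a probe set. Since this contrast served to choose the family, these shares are descriptive. The 5 other genes of the family with a probe set outside the list, CA1, CA5A, CA6, CA7 and CA10, had differences between -0.06 and 0.05. Among them CA7 was tested and did not pass, and the dim CA10 was the 1 gene without overlap, by a gap of only 0.0005.

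The spread within the groups, which played no part in the choice, differed among the tested members. The within-group SD was 0.10 for CA12, above that of 67.4% of tested genes. It was 0.15 for CA11 (87.5%), 0.06 for CA13 (28.8%), 0.04 for CA4 (13.1%) and 0.02 for CA5B (1.75%). CA5B thus had the tightest arrays of the 5 and CA11 the widest scatter.

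The array profile of CA12 was set beside those of all tested genes by the root mean square difference over the 6 arrays, after each gene was centred on its own mean. The nearest was PLA2G4A, the cytosolic phospholipase A2 that releases arachidonic acid, at 0.05. It read 7.54, 7.67 and 7.39 in control and 6.03, 6.21 and 6.17 in overexpression. PRKAA2, a catalytic subunit of the AMP-activated kinase, followed at 0.07, with 5.35, 5.37 and 5.20 in control and 3.90, 3.92 and 3.83 in overexpression. AQP9, an aquaporin that also passes glycerol, lay at 0.12, the adenylate cyclase ADCY8 at 0.13 and the secreted ligand WNT5A at 0.13. All 5 were lower on every overexpression array by a similar amount, with differences between -1.63 and -1.32. PRKAA2 was above the array median on the control arrays alone. This likeness is dominated by the step between the groups, and it describes 6 arrays only.

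**Figure D3:**
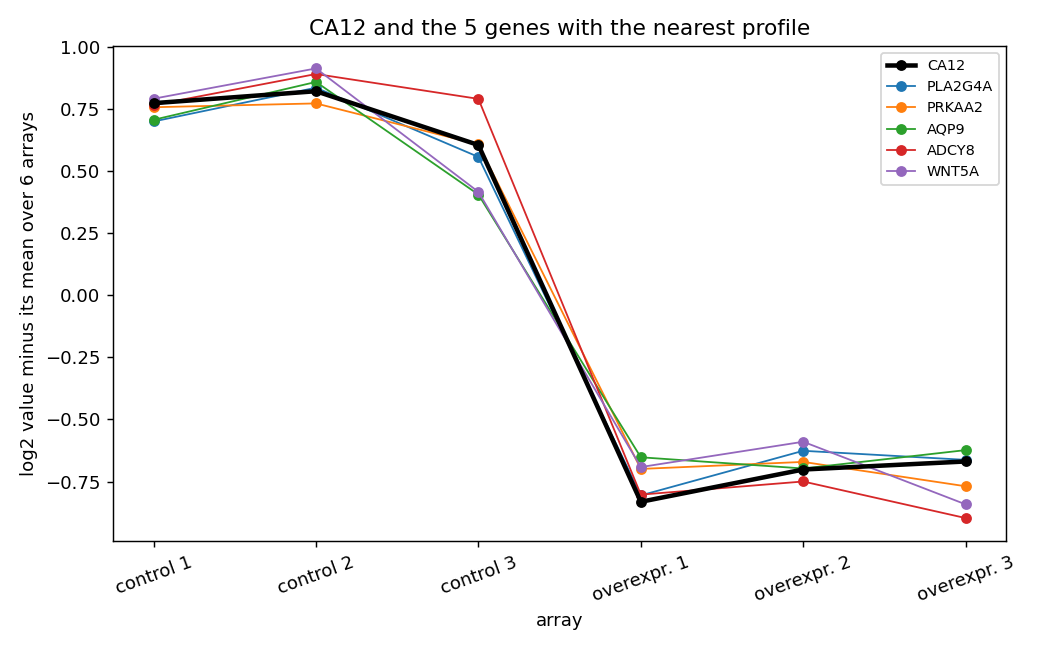
Log2 values of CA12 (thick black) and the 5 genes with the nearest profile on the 3 control and 3 overexpression arrays, each minus its mean over the 6 arrays. Lines join the values of 1 gene and imply no order of the arrays. All 6 genes drop from control to overexpression, and control array 3 is the lowest control for each except ADCY8.

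Genes next to CA12 on chromosome 15 were examined in RefSeq order, 5 on either side. The next gene, USP3, a deubiquitinating enzyme acting on histones, was also lower, with 8.28, 8.42 and 8.36 in control and 7.58, 7.74 and 7.72 in overexpression. Its groups did not overlap, and the difference was -0.67 ± 0.07, 1.59-fold lower (limma, adjusted p = 0.00110). APH1B, a gamma-secretase subunit on the other side, rose by 0.30 ± 0.07 (limma, adjusted p = 0.0278). Its call ended when any 1 array other than control array 3 was left out (adjusted p between 0.0677 and 0.123) and with the ordinary equal-variance test (0.129). HERC1, a large ubiquitin ligase, had a difference of -0.26 ± 0.08 without passing (adjusted p = 0.0669, limma). TPM1, LACTB, RPS27L, RAB8B and FBXL22 had differences between -0.08 and 0.09 and did not pass, and USP3-AS1 and MIR422A were dim.

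**Figure D4:**
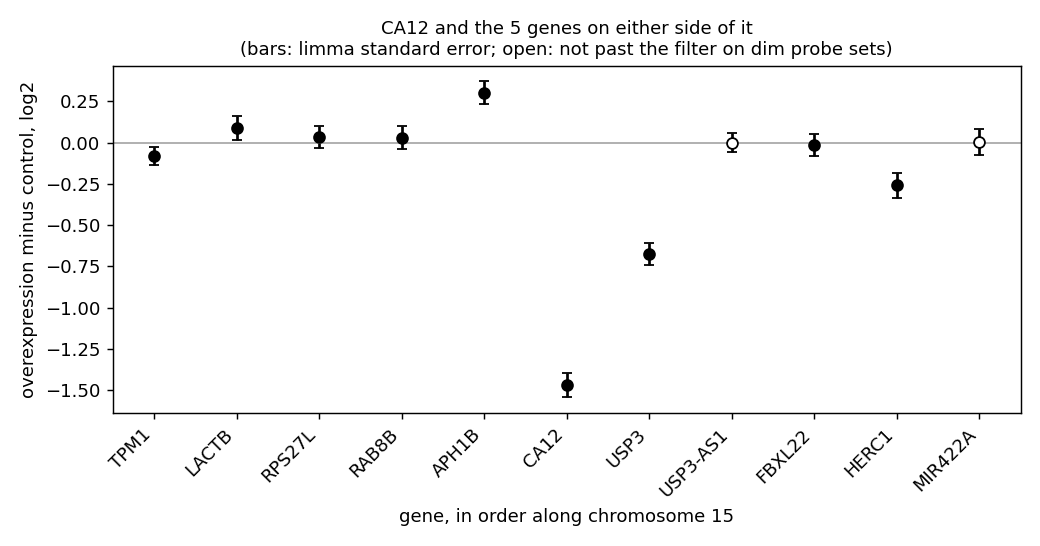
Difference between overexpression and control (log2) with its limma standard error for CA12 and the 5 genes with a named probe set on either side, in order along chromosome 15 (the horizontal axis is order, not distance). CA12 (-1.47) and the adjoining USP3 (-0.67) lie below 0, APH1B lies at 0.30, and HERC1 at -0.26.

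Genes of acid-base handling beside the carbonic anhydrases, namely carriers of bicarbonate, protons and lactate, lactate dehydrogenases, the V-ATPase and acid sensors, were called about as often as genes at large. Of 78 listed genes 69 had a probe set and 54 were tested, of which 4 were higher and 3 lower (13.0%, against the 10.9% of all tested genes). The median difference of the 54 genes was 0.03, against 0.02 over all tested genes. The lactate carriers SLC16A1 and SLC16A3 are not analysed here, since no probe set with their symbol alone was named. Under the ordinary equal-variance test 0 of the 54 genes were higher and 1, SLC9B2, lower, against 1.56% and 1.08% of all tested genes. SLC9B2 entered the test through the control arrays alone, as set out below. Without control array 3, when 23.0% of all tested genes were called, 10 were higher and 9 lower.

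Of 11 bicarbonate transporters 1 was higher and 1 lower, against 6.39% higher and 4.54% lower over all tested genes. SLC4A7, a sodium-bicarbonate cotransporter that brings bicarbonate into the cell, read 8.82, 8.84 and 8.65 in control and 8.27, 8.45 and 8.33 in overexpression, and fell by 0.42 on the log2 scale (limma, adjusted p = 0.0101). That call ended without overexpression array 1 (adjusted p = 0.0561) and with the ordinary equal-variance test (0.0904). SLC26A4, the anion exchanger pendrin, read 5.32, 5.42 and 5.77 in control and 6.07, 6.17 and 5.87 in overexpression, and rose by 0.53 (limma, adjusted p = 0.0281). The rise was no longer called with each array centred on its median (adjusted p = 0.0542) or with cyclic loess (0.0633). It was also lost without overexpression array 1 or 2 or control array 1 or 2 (adjusted p between 0.0723 and 0.121). The ordinary equal-variance test did not call it either (adjusted p = 0.182).

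Of 7 genes for sodium-proton exchangers and their partner proteins 0 were higher and 1 lower, against 6.39% and 4.54% of all tested genes. SLC9B2, a cation-proton antiporter, read 5.50, 5.29 and 5.58 in control and 4.56, 4.50 and 4.47 in overexpression, a difference of -0.95 ± 0.08, or 1.93-fold lower. It was above the array median on the control arrays alone, so it entered the test through the group in which it was higher, and its call is counted but supports nothing. With only genes above the median on all 6 arrays, 0 of 6 genes of this list were lower. Of 6 genes of lactate transport and conversion 0 passed, against 10.9% of all tested genes by limma and 2.63% by the ordinary test. At an unadjusted limma p under 0.05 there were 3, each of them lower, against 3952 of all 15800 tested genes in either direction. SLC16A7, a high-affinity lactate and pyruvate carrier, came nearest (difference -0.22, adjusted p = 0.0816, limma), and LDHA, lactate dehydrogenase, and BSG, the chaperone of the carriers, each had a difference of -0.16 and groups that did not overlap. SLC16A7 was called lower with cyclic loess (difference -0.25, adjusted p = 0.0436), when 5.28% of all tested genes were called lower. Without control array 3 these 3 genes passed, all lower, when 9.98% of all tested genes were called lower.

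The V-ATPase, the proton pump of lysosomes and other acidic compartments, had 3 of 23 tested subunits higher and 1 lower. Over all tested genes 6.39% were higher and 4.54% lower. At an unadjusted limma p under 0.05 there were 8 subunits higher and 2 lower, against 3952 of all 15800 tested genes in either direction. The groups did not overlap for 8 subunits above and 2 below control, against 17.1% and 12.2% of all tested genes. ATP6V0D2, a membrane-sector subunit, read 7.21, 7.49 and 7.62 in control and 8.10, 8.13 and 7.95 in overexpression, and rose by 0.62 (limma, adjusted p = 0.00884). ATP6V1G1 and ATP6V1H of the cytosolic sector rose by 0.29 and 0.21 (limma, adjusted p = 0.0344 and 0.0435). ATP6V0A1, of the membrane sector, fell by 0.41 (limma, adjusted p = 0.0239). The calls were sensitive to single arrays. Those of ATP6V1G1, ATP6V1H and ATP6V0A1 ended when any 1 array except control array 3 was left out, and that of ATP6V0D2 without overexpression array 1 or 2 (adjusted p = 0.0518 and 0.0543). With the ordinary equal-variance test 0 subunits were called, against 2.63% of all tested genes. The subunits named above had adjusted p between 0.0747 and 0.153 in that test. With arrays centred on their medians, ATP6V1G1 (adjusted p = 0.0501) and ATP6V1H (0.0881) were not called, nor was ATP6V1H with cyclic loess (0.0625) or a robust, trended prior (0.0503). Cyclic loess in turn called ATP6V0E1 (adjusted p = 0.0425) and ATP6V1F (0.0408). That made 4 subunits higher and 1 lower, against 5.49% and 5.28% of all tested genes. Control array 3 minus the mean of the other controls had a median of 0.07 over the tested subunits. Without that array 9 subunits were higher and 1 lower, against 13.0% higher and 9.98% lower over all tested genes in that setting. Of 7 acid-sensing receptors and channels 0 passed, against 10.9% of all tested genes by limma and 2.63% by the ordinary test. ASIC1 alone was lower at an unadjusted limma p under 0.05 (difference -0.12), which 3952 of all 15800 tested genes reached in either direction.

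**Figure D5:**
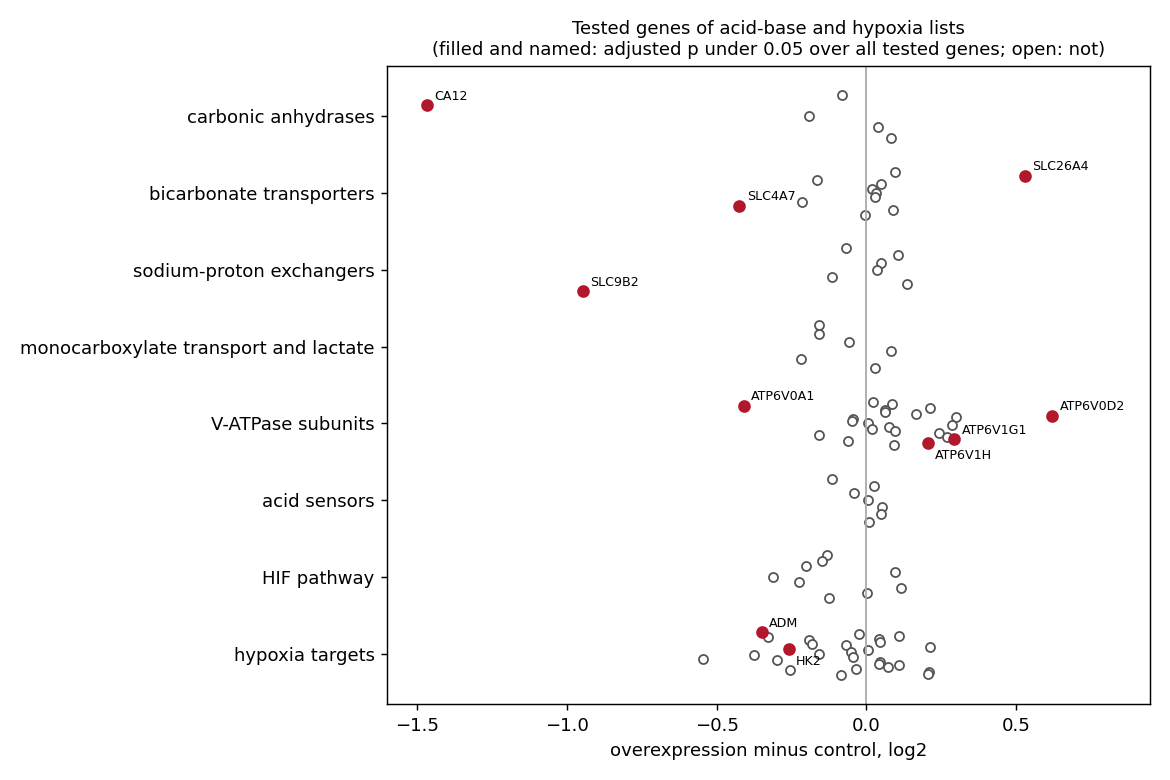
Difference between overexpression and control (log2) for each tested gene of the carbonic anhydrases, 5 acid-base transport lists, the HIF pathway and hypoxia targets. Filled named points passed an adjusted p of 0.05 over all genes and open points did not. CA12 (-1.47) and SLC9B2 (-0.95) lie farthest to the left, and ATP6V0D2 (0.62) farthest to the right.

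The HIF pathway, through which low oxygen induces CA9 and CA12 in many cell types, was read through its own genes. Of 9 tested genes 0 passed in either direction, against 10.9% of all tested genes by limma and 2.63% by the ordinary test. The groups did not overlap for 5 of them (1 above and 4 below control), against 17.1% above and 12.2% below over all tested genes. At an unadjusted limma p under 0.05 there were 3, each of them lower, against 3952 of all 15800 tested genes in either direction. HIF1A, the oxygen-sensitive subunit, had the smallest p, with 10.93, 11.10 and 10.96 in control and 10.72, 10.80 and 10.79 in overexpression. Its groups did not overlap, and the difference was -0.23 ± 0.06 (limma, adjusted p = 0.0555). EPAS1, which encodes HIF-2 alpha, read 10.13, 10.19 and 9.55 in control and 9.58, 9.60 and 9.75 in overexpression, so that control array 3 alone made the groups overlap. Without that array HIF1A, EPAS1, ARNT and the prolyl hydroxylase EGLN1 were called lower and the HIF hydroxylase HIF1AN higher, with 23.0% of all tested genes called. RNA levels do not report HIF protein, which is controlled by degradation.

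Among 27 tested hypoxia targets, which played a part in the choice of the family, 0 were higher and 2 lower, adrenomedullin (ADM) and the hexokinase HK2, against 6.39% higher and 4.54% lower over all tested genes. At an unadjusted limma p under 0.05 there were 3 higher and 8 lower, against 3952 of all 15800 tested genes in either direction. The family was chosen with these targets in view, so the counts are a description only. By the ordinary test 0 were called, against 2.63% of all tested genes. The calls of ADM and HK2 ended when any 1 array other than control array 3 was left out. The differences of ADM and HK2 were -0.35 and -0.26, and the median of the list was -0.04. The widest difference in the list was that of NDRG1 (-0.54), which did not pass. Without control array 3 the NDRG1 difference was -0.83 and was called, and 2 targets were higher and 10 lower, with 23.0% of all tested genes called. The list shares LDHA with the lactate genes.

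CA12 is also known as a gene that oestrogen induces in breast cancer cells. Of 6 tested genes of the oestrogen receptor, its partners and its targets 0 passed by limma or by the ordinary test. Those tests called 10.9% and 2.63% of all tested genes. At an unadjusted limma p under 0.05 there were 2 higher, GATA3 and GREB1, against 3952 of all 15800 tested genes in either direction. GATA3 had the smallest p, with a difference of 0.24 (limma, adjusted p = 0.0694). ESR1 differed by 0.02 ± 0.06, and ESR2 and PGR were dim.

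Of 12 glioma and astrocyte markers 11 were above the array median on at least 3 arrays. VIM read 12.15 in overexpression and 12.09 in control and CD44 10.54 and 10.47 (means, n = 3 each). GFAP read 5.80 and 5.70, CHI3L1 5.39 and 5.30, and SOX2 5.30 and 5.32, while the array medians were 4.97 to 5.03 and AQP4 was dim. Of the 11 tested markers 2 were higher and 0 lower, against 6.39% higher and 4.54% lower over all tested genes. These were NES, by 0.53 (limma, adjusted p = 0.00125), and SLC1A3, by 0.46 (limma, adjusted p = 0.0280). SLC1A3 was not called with arrays centred on their medians (adjusted p = 0.0593), with cyclic loess (0.0634) or with the ordinary test (0.173). Nor was it called without any 1 overexpression array (0.0864 to 0.117). Further calls appeared in single settings, with EGFR lower by the ordinary test (difference -0.14), CD44 higher with the mean of its probe sets (0.29) and PDGFRA lower without control array 3 (-0.52). Of 16 markers of other cell types 13 had a probe set and 7 were tested. By limma or by the ordinary test 0 of these passed, against 10.9% and 2.63% of all tested genes. At an unadjusted limma p under 0.05 there was 1 higher, against 3952 of all 15800 tested genes in either direction. The 7 tested were CD3E, CDH5, VWF, KRT19, MBP, RBFOX3 and SYT1. Their mean level lay between 5.49 and 5.65 on the control arrays and between 5.53 and 5.63 in overexpression. Group means ran from CDH5 (5.20 in overexpression, 5.16 in control) to SYT1 (6.28 and 6.13). PTPRC, CD14, PECAM1, EPCAM, KRT5 and HBB were dim. In these bulk samples fewer cells that express CA12 and less CA12 RNA per cell cannot be told apart.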

How the data were processed

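Total RNA of 6 samples of U87 MG cells, 3 labelled GUCY1B3 overexpression and 3 control, was hybridised to Affymetrix arrays. The authors deposited 1 table of log2 values for 70523 features, made by RMA in Affymetrix Expression Console per the submitters' processing notes. Software version, library files and array build are not given in the sources used here. Array medians lay between 4.97 and 5.03, and precision is limited by having 3 arrays a group. The platform annotation gave 1 symbol for 23781 probe sets, updated through the RefSeq gene table of GRCh38.p14. For each gene the probe set of highest mean was kept, and Y-linked genes were left out. Genes above the array median on at least 3 of 6 arrays (15800) were fitted with limma 3.58.1 in R 4.3.3 (lmFit, eBayes, 4 residual and 4.37 prior degrees of freedom), with Benjamini-Hochberg adjustment and a threshold of 0.05. Python 3.11.15, pandas 2.3.3, numpy 2.4.6 and matplotlib 3.10.9 did the rest. The fit was tested on simulated data. Named genes were all members, list members past the threshold (at most 5 a list, otherwise that of smallest p), 5 neighbours of CA12 on either side and the 5 nearest profiles. NDRG1, EPAS1, LDHA, BSG, ESR1, GREB1, CDH5, SYT1 and the genes named without control array 3 were named after their values were seen. The members and lists were chosen with earlier results of these data known. Alternatives covered centring, cyclic loess, 2 filters, the mean of probe sets, 2 further tests, the replicate number as a block and leaving out each array.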

Additional observations from a re-analysis of the deposited data

How the results depend on the processing

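The CA12 difference kept its sign and moved by less than the replicate spread under every alternative run, between -1.53 and -1.42. The other differences of the 9 genes moved by less than 1 SD, except that of CA5B with cyclic loess (0.06). Calls over all tested genes were 1010 higher and 717 lower, against 246 and 170 with the ordinary equal-variance test. Leaving out 1 array gave 309 to 2050 higher and 215 to 1577 lower, the highest counts without control array 3. For acid-base transport genes (4 higher, 3 lower) there was 1 higher with arrays centred on their medians, and 0 higher and 1 lower with the ordinary test. Leaving out 1 array gave 0 to 10 higher and 1 to 9 lower for these genes, 0 to 1 higher and 0 to 4 lower for the HIF pathway, and 1 to 2 lower for carbonic anhydrases. Replicate numbers are shared between the groups, but the correlations of same-numbered deviations (0.28, -0.10 and -0.24) did not pair the arrays. With a replicate block 589 genes were higher and 439 lower, and 1 transport gene was higher. Dim probe sets give no estimate of low expression, and fold changes near background are compressed.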
